A study of Mus musculus with 7 samples.

Results

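The 10 genes described here encode C-type lectin receptors of myeloid cells: Mgl2, Clec10a, Clec4a2, Clec4d, Clec4e, Clec4n, Clec5a, Clec7a, Clec12a and Cd209a. They are 10 of the 35976 gene symbols in the deposited count table, and each of the 10 has a row there. The set was chosen by symbol after Mgl2 had drawn attention by its lower level in the knockout libraries. The comparison of knockout with control therefore helped to choose the members, so its values are given for them as a description, with fold changes and standard errors and without p-values.

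C-type lectin receptors are surface proteins that use a calcium-dependent or related fold to bind sugars, lipids or proteins of microbes and of damaged cells. Monocytes, macrophages, dendritic cells and granulocytes use them to sample their surroundings. Some activate the cell through an immunoreceptor tyrosine-based activation motif, either their own or that of a partner chain such as Fcer1g or Tyrobp, which recruits the kinase Syk and then the adaptor Card9. Others carry an inhibitory motif that recruits the phosphatases Ptpn6 and Ptpn11.

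RNA was sequenced from lineage-negative cells of C57BL/6 mouse fetal liver at E14.5, selected with magnetic beads against mature blood cells. The 3 control libraries came from embryos with the genotype CD45.2(+) Brd9fl/fl and without the recombinase, and the 4 knockout libraries from embryos that carried Vav1-iCre on the same background. Brd9 is a subunit of a BAF-type chromatin remodelling complex, and Vav1-iCre is a recombinase driven by regulatory elements of the blood cell gene Vav1. The recombinase was present in all knockouts and in no control, so its own effects and the loss of Brd9 cannot be told apart. The labels do not tie a library to 1 embryo or to a pool, and the spread between libraries may thus be partly technical.

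Library totals were between 18748885 and 23571878 counts. Levels are given as CPM, read counts relative to the scaled library total, as mean ± SD (n = 3 controls and n = 4 knockouts). Brd9 lay between 30.6 and 36.5 CPM among controls and between 8.58 and 13.2 CPM among knockouts, so each library was on the side of its label. Of 14 progenitor markers, all tested, 9 were lower and 5 higher, with a median log2 fold change of -0.14 and 0 calls by edgeR or limma-voom (3 lower and 1 higher at an unadjusted p under 0.05, 2 lower by DESeq2). Their summed level was 866 to 1217 CPM among controls and 679 to 939.8 CPM among knockouts. Of all 14679 tested genes, 1593 had an unadjusted p under 0.05 in either direction, and DESeq2 called 386 genes in all. All 12 hepatocyte markers were detected too, with a summed level of 10861.9 to 19150.5 CPM among controls and 13869.9 to 24529.6 CPM among knockouts, so RNA of these genes was present in the fraction. All 12 were tested and 12 were higher among knockouts, with a median log2 fold change of 0.21. There were 0 calls by edgeR, DESeq2 or limma-voom, and 0 at an unadjusted p under 0.05. Of 13 mature blood cell markers 12 had a row and 6 were tested, with 0 calls by edgeR or limma-voom and 1 lower by DESeq2 (2 lower and 2 higher at an unadjusted p under 0.05). Their summed level was 185 to 264 CPM among controls and 156 to 280.4 CPM among knockouts. This list shares 3 genes with other lists. Among them is Ptprc, also counted as a progenitor marker, with 46.1 to 91.0 CPM among controls and 37.4 to 66.4 CPM among knockouts.

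In the controls the receptors covered a wide range of levels. Scaled to the length of their annotated exons, Clec12a was the most abundant at 18.5 ± 4.8 CPM per kilobase, and Clec5a followed at 10.6 ± 3.0. Mgl2 came next at 6.99 ± 2.03 CPM per kilobase, then Clec4a2 at 5.29 ± 1.40 and Clec7a at 3.76 ± 1.04. Clec5a, Mgl2, Clec4a2 and Clec7a overlapped each with the next in that order, while Clec12a lay above every Clec5a value and Clec7a above every Clec4n value. The lower part of the order held Clec4n (1.66 ± 0.67), Clec4d (1.03 ± 0.25), Clec4e (0.422 ± 0.106), Clec10a (0.151 ± 0.055) and Cd209a (0.118 ± 0.080 CPM per kilobase). Among these, Clec4n overlapped with Clec4d and Clec10a with Cd209a. In the knockouts Mgl2 stood sixth, at 0.804 ± 0.449 CPM per kilobase, below Clec12a, Clec5a, Clec7a, Clec4a2 and Clec4d.

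**Figure D1:**
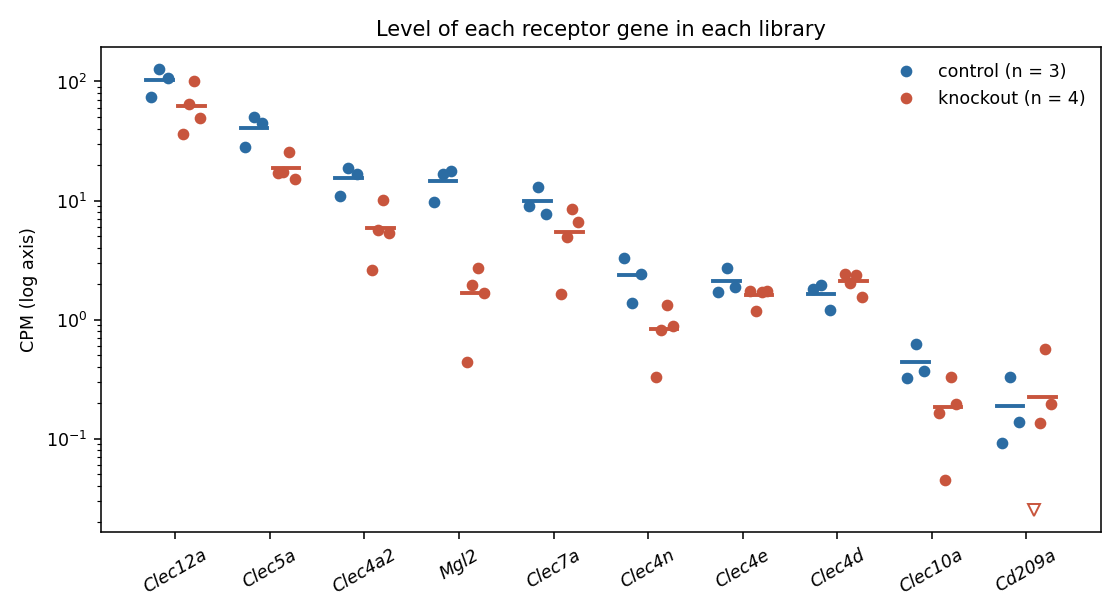
Level of each receptor gene in each library, in CPM on a log axis, with 3 controls in blue and 4 knockouts in red; bars are group means and the open triangle marks a library with 0 reads. Mgl2 lies at 9.77 to 17.6 CPM among controls and at 0.437 to 2.70 CPM among knockouts, while Clec4d and Clec4e overlap between the groups.

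Mgl2 and Clec10a encode the 2 mouse macrophage galactose-type lectins, which bind galactose and N-acetylgalactosamine. Mgl2, known from macrophages and a subset of dendritic cells, had 9.77, 16.6 and 17.6 CPM in control replicates 1 to 3 and 0.437, 1.94, 2.70 and 1.66 CPM in knockout replicates 1 to 4. Every knockout lay far below every control, and knockout replicate 1, with 8 reads, was the lowest. The means were 14.6 ± 4.2 and 1.68 ± 0.94 CPM, a fitted log2 fold change of -3.10 (SE 0.42), or 8.58-fold lower. In bulk RNA such as this, fewer cells that make a transcript and less of it per cell cannot be told apart.

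Clec10a was close to the limit of detection, with 7, 15 and 8 reads among controls and 3, 1, 7 and 4 among knockouts. Its levels were 0.323, 0.621 and 0.368 CPM against 0.164, 0.0452, 0.332 and 0.195 CPM. Knockout replicate 3 exceeded control replicate 1, so the groups overlapped, and the gene did not pass the filter on low counts. Pooled over libraries it had 0.444 CPM among controls and 0.183 CPM among knockouts.

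Both genes lie on the plus strand of chromosome 11, Mgl2 at chr11:70130329-70137550 and Clec10a at chr11:70156197-70170834 (GRCm38, GENCODE M21). They are close copies, which matters for how reads could be assigned. Over 914 aligned coding bases 88.7% were identical, and the longest identical run was 183 bases. Of all 50-base words in the Mgl2 transcripts, 13.1% also occur in transcripts of another gene, mostly Clec10a. The following coding stretch of 120 bases is shown because it has the same letters in both genes, at chr11:70136441-70136560 in Mgl2 and chr11:70169926-70170045 in Clec10a, on the plus strand, so that a read within it fits either gene.
Mgl2 and Clec10a: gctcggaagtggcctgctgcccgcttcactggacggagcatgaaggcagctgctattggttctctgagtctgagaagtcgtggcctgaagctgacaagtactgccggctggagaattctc

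The next stretch of 60 coding bases has 54 identical bases and is shown as an example of a place where reads can be told apart. It lies at chr11:70136251-70136310 in Mgl2 and at chr11:70169736-70169795 in Clec10a, on the plus strand (GRCm38). Capitals mark the 6 bases that differ.
Mgl2: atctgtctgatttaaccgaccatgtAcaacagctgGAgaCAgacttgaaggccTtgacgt
Clec10a: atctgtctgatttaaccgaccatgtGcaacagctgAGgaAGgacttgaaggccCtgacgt

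How long the reads were, and how those matching both genes were treated, is not given in the sources used here. Control reads numbered 995 for Mgl2 and 30 for Clec10a.

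Mgl2 is given here relative to other receptors of the same libraries, as a description, since its lower level chose the set. Mgl2 amounted to 13.2%, 13.1% and 16.4% of Clec12a among controls and to 1.21%, 3.02%, 2.69% and 3.38% among knockouts. Against Clec4a2, the receptor with the nearest level in the controls, it made up 89.1%, 87.8% and 106% among controls and 16.7%, 34.4%, 26.9% and 31.2% among knockouts. Among controls the ratio to Clec7a was the least even, from 108% to 229%, and among knockouts it ran from 25.2% to 39.1%. Against Clec5a the ranges were 33.2% to 39.4% and 2.54% to 11.1%.

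**Figure D2:**
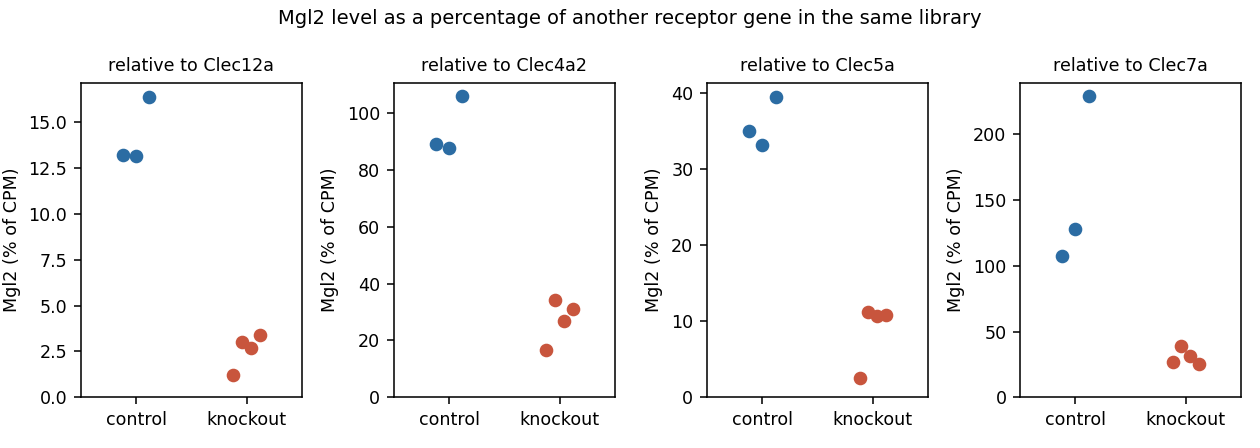
Mgl2 CPM as a percentage of the CPM of Clec12a, Clec4a2, Clec5a or Clec7a in the same library, for 3 controls (blue) and 4 knockouts (red). For Clec12a the knockouts lie at 1.21% to 3.38% and the controls at 13.1% to 16.4%, and the Clec7a panel has the widest control range.

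The other tested receptors, inhibitory and activating alike, changed by smaller amounts than Mgl2. Clec4a2, an inhibitory receptor of dendritic cells and other myeloid cells, had 10.97, 18.9 and 16.6 CPM among controls and 2.62, 5.65, 10.04 and 5.31 CPM among knockouts. The groups did not overlap, but knockout replicate 3 came close to control replicate 1. The fitted log2 fold change was -1.39 (SE 0.37). In the annotation Clec4a2 shares 6.69% of its 50-base words with other genes, most with its neighbour Clec4a4, which had 1 read in either group.

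Clec12a, an inhibitory receptor that senses uric acid crystals of dying cells, had 73.8, 126 and 107 CPM among controls and 36.2, 64.3, 101 and 49.0 CPM among knockouts. Knockout replicate 3 lay within the control range and the other knockouts below it. Its log2 fold change was -0.71 (SE 0.31), and it was -1.04 without knockout replicate 3.

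The Clec4 group also holds activating receptors. Clec4n, also called Dectin-2, binds fungal mannans and signals through Fcer1g. It had 3.27, 1.37 and 2.44 CPM among controls and 0.328, 0.813, 1.33 and 0.877 CPM among knockouts. The groups were separate by a narrow margin, between control replicate 2 with 33 reads and knockout replicate 3 with 28. The log2 fold change was -1.47 (SE 0.44).

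Clec4e, or Mincle, recognises mycobacterial and fungal glycolipids, and Clec4d is its partner. Clec4e had 1.71, 2.69 and 1.89 CPM among controls and 1.75, 1.17, 1.71 and 1.76 CPM among knockouts, with a log2 fold change of -0.40 (SE 0.27). Clec4d had 1.80, 1.95 and 1.20 CPM against 2.40, 2.03, 2.37 and 1.56 CPM, with a log2 fold change of 0.34 (SE 0.28). Both overlapped between the groups, and Clec4d was the only tested receptor with a higher mean among knockouts. As a percentage of Clec4a2, Clec4d made up 7.22% to 16.4% among controls and 23.6% to 91.7% among knockouts. This ratio carries the lower Clec4a2 values of the knockouts and is a description.

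Clec7a, or Dectin-1, binds fungal beta-glucans and recruits Syk through a motif of its own. GENCODE M21 gives it the type polymorphic pseudogene. It had 9.08, 12.96 and 7.68 CPM among controls and 1.64, 4.97, 8.53 and 6.58 CPM among knockouts. Knockout replicate 3 exceeded control replicate 3, so the groups overlapped, and knockout replicate 1 was the lowest again. The log2 fold change was -0.86 (SE 0.42), and it was -0.57 without knockout replicate 1.

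Clec5a, which signals through Tyrobp and binds viral glycoproteins, had 28.0, 50.1 and 44.6 CPM in the controls. The knockouts had 17.2, 17.4, 25.4 and 15.3 CPM, all below the controls. The log2 fold change of -1.12 had the smallest standard error of the set, 0.22. Cd209a, the mouse relative of the dendritic cell receptor DC-SIGN, had 2, 8 and 3 reads among controls and 0, 3, 12 and 4 among knockouts. It did not pass the filter on low counts, and no difference was detectable at this depth. The 0 in knockout replicate 1 allows up to 0.164 CPM (3 counts of that library, counting error only).

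Across the set, 8 of 10 receptors passed the filter on low counts and were tested in the fit over 14679 genes. Of these 8, 7 were lower and 1 higher among knockouts, with a median log2 fold change of -0.99, against a median of 0.01 over all tested genes. A fold change of at least 2 toward lower levels was fitted for 4 receptors, Mgl2, Clec4n, Clec4a2 and Clec5a, and for 2.08% of all tested genes. The same 4 had every knockout below every control, as did 6.81% of all tested genes. In edgeR's quasi-likelihood test 1 of the 8, Mgl2, was called at a Benjamini-Hochberg adjusted p under 0.05, where 0.545% of all tested genes were called lower. Because this comparison helped to choose the set, nothing is read from these shares.

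The Mgl2 call was lost without control replicate 3, knockout replicate 2 or knockout replicate 4. Without knockout replicate 3, Clec4a2 and Clec5a were called beside it, and without control replicate 1 Clec5a was. The log2 fold change of Mgl2 ranged from -3.42 to -2.80 when 1 library was left out.

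**Figure D3:**
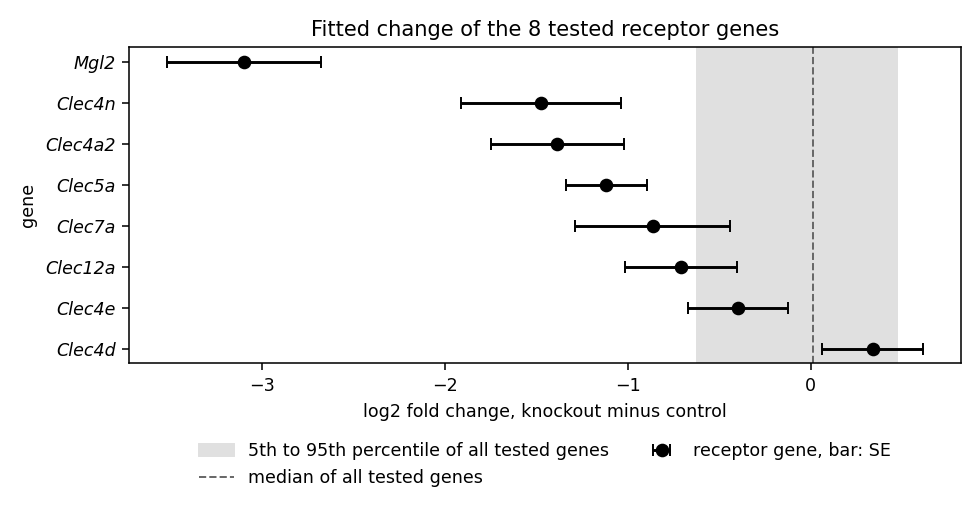
Fitted log2 fold change, knockout minus control, of the 8 tested receptor genes (points) with their standard errors (bars); the grey band, from -0.62 to 0.47, leaves out the lowest and highest 5% of all tested genes and the dashed line is their median. Mgl2 lies at -3.10, apart from Clec4n at -1.47, while Clec4e and Clec4d lie within the band.

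Mgl2, Clec4a2 and Clec5a, 3 of the 10 receptors, have an adjusted p under 0.05 in the authors' deposited table, where 1.88% of the genes with an adjusted p are lower at that threshold. The log2 fold changes in the authors' deposited table are -3.11 for Mgl2, -1.39 for Clec4a2, -1.12 for Clec5a and -1.49 for Clec4n.

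Many of the receptors had their highest or lowest level in the same library of a group. Knockout replicate 3 had the highest knockout level for 8 of 10 receptors, the exceptions being Clec4d and Clec4e, and knockout replicate 1 the lowest for 6. Among controls, replicate 2 was highest for 8, all but Mgl2 and Clec4n, and it was the lowest for Clec4n. Outside the set, Fcer1g, Tyrobp and the macrophage marker Csf1r had the same highest and lowest knockouts. Syk and the progenitor marker Kit were highest in another knockout. The share of all genes with this order was not counted, so nothing is read from these counts. The summed level of the 10 was 139, 232 and 199.5 CPM among controls and 62.7, 98.4, 153.5 and 82.5 CPM among knockouts, of which Clec12a made up the largest part. Only knockout replicate 3 reached the control range in this sum.

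Markers of the cells that carry these receptors moved with them in part. Of 15 macrophage markers 13 were tested, 12 were lower and 1 fell (8 lower at an unadjusted p under 0.05, 5 lower by DESeq2, 1 by limma-voom). They summed to 234 to 335 CPM among controls and 90.1 to 179 CPM among knockouts. Of 14 monocyte markers, all tested, 12 were lower and 2 fell (9 lower at an unadjusted p under 0.05, 4 lower by DESeq2, 2 by limma-voom). Their sums ran from 750 to 1113 CPM and from 736 to 900 CPM. Of 19 neutrophil markers 17 were tested, 16 were lower and 7 fell (12 lower and 1 higher at an unadjusted p under 0.05, 9 lower by DESeq2, 7 by limma-voom). Their sums ran from 4976 to 8831 CPM and from 1706 to 3851 CPM. Dendritic cell markers, 13 of 18 tested with 0 calls (2 lower at an unadjusted p under 0.05, 1 lower by DESeq2, 0 by limma-voom), ran from 542 to 631 CPM and from 539 to 741 CPM. No marker of these 4 lists was at 0 in every library. Of all 14679 tested genes, 47.65% were lower and 0.545% were called lower. An unadjusted p under 0.05, in either direction, was found for 1593 of them, and DESeq2 called 386 genes in all.

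The level of Mgl2 was set against these sums. It amounted to 2.92% to 7.09% of the macrophage marker sum among controls and 0.485% to 1.62% among knockouts. Against monocyte markers it made up 1.30% to 1.59% and 0.0504% to 0.3001%, and against neutrophil markers 0.188% to 0.248% and 0.0256% to 0.0864%. Against dendritic cell markers Mgl2 made up 1.68% to 3.06% among controls and 0.0771% to 0.3645% among knockouts. These ratios carry the Mgl2 values that chose the set and are a description. What part the makeup of the cell fraction had in the receptor levels was not tested.

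Of the 10 receptors, 7 are encoded on chromosome 6, in 3 places. Clec5a lies apart on the minus strand at chr6:40574894-40585821. The Clec4 cluster runs in the order Clec4a1, Clec4a3, Clec4a4, Clec4b1, Clec4a2, Clec4b2, Clec4n, Clec4d and Clec4e, and the next genes were chosen for their place in it. At its proximal side, Clec4a1 had 2.44, 1.86 and 1.75 CPM among controls and 0.164, 0.361, 0.758 and 0.780 CPM among knockouts, a log2 fold change of -1.94 with SE 0.44 and adjusted p = 0.106.

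Clec4a3 had 0.876, 0.911 and 0.782 CPM against 0.109, 0.497, 0.426 and 0.536 CPM (log2 fold change -1.10, SE 0.44, adjusted p = 0.413). Clec4b2 had 0.645, 0.704 and 0.644 CPM against 0.0546, 0, 0.142 and 0.390 CPM (log2 fold change -2.14, SE 0.70, adjusted p = 0.293). Neither passed edgeR's test over all genes, and nor did Clec4a1, which was called by DESeq2 and by edgeR with no filter. All 3, like Clec4a2 and Clec4n, had every knockout below every control, as did 6.81% of all tested genes, and Clec4d and Clec4e overlapped. Clec4b2 had 14, 17 and 14 reads among controls and 1, 0, 3 and 8 among knockouts. Clec4a1, Clec4a3 and Clec4b2 passed the filter on low counts only through their control reads. Nothing is therefore read from their separation or their tests. Clec4a4 and Clec4b1 had at most 2 reads in either group.

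**Figure D4:**
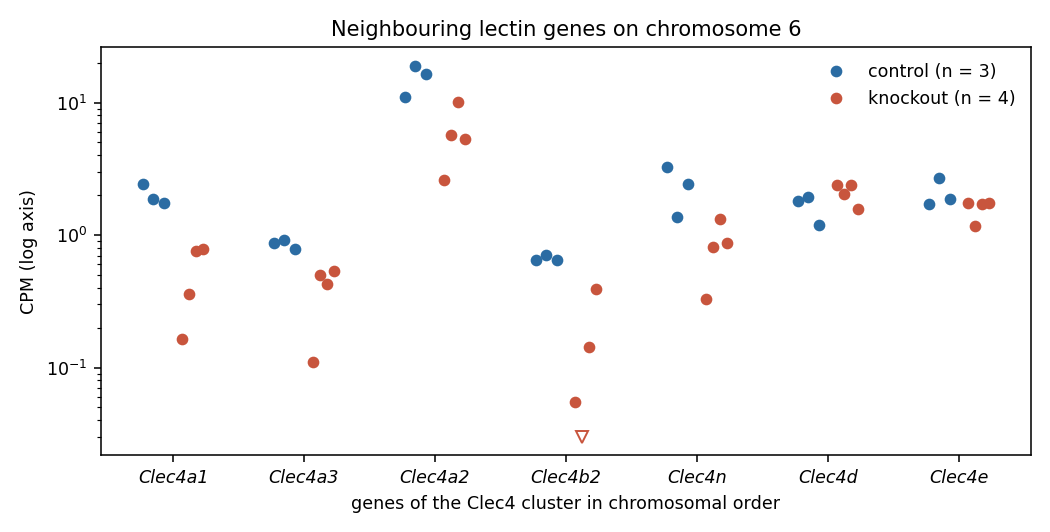
CPM on a log axis of 7 genes of the Clec4 cluster, in chromosomal order, for 3 controls (blue) and 4 knockouts (red); the open triangle marks a library with 0 reads, and Clec4a4 and Clec4b1 are left out for their low counts. From Clec4a1 to Clec4n all knockouts lie below all controls, and at Clec4d and Clec4e the groups overlap.

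Farther along, Clec12a (chr6:129342691-129365303) and Clec7a (chr6:129461591-129472779) are separated by Clec12b, Clec1b, Clec9a and Clec1a, and followed by Olr1. Clec1b, a receptor of platelets and megakaryocytes, had 16.99 ± 4.71 and 10.99 ± 5.89 CPM (log2 fold change -0.63, SE 0.37, adjusted p = 0.606). Clec9a, a receptor of cross-presenting dendritic cells, had 2.33 ± 1.64 and 1.92 ± 1.08 CPM (log2 fold change -0.28, SE 0.53, adjusted p = 0.876). Both overlapped between the groups. Clec12b, an inhibitory receptor, had 5, 7 and 2 reads among controls and 0, 0, 1 and 0 among knockouts, and Clec1a had 1, 7 and 5 against 3, 6, 3 and 6 reads. Neither passed the filter on low counts.

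Sequence upstream of the receptors was searched for letters bound by factors of myeloid cells. RefSeq (GRCm38.p6) gave a window of 250 bases before the start for 8 of the 10 genes, all but Clec10a and Clec4n. The letters GAGGAA, the core bound by PU.1 (Spi1), were found on either strand in 6 of the 8, and in 23.3% of all 32851 windows of this length. Those 6 were Mgl2, Clec4d, Clec4e, Clec5a, Clec7a and Clec12a. TTNNGCAA, a C/EBP site, was found in Clec4e and Clec12a (9.56% of all windows), TGTGGT, a RUNX site, in Clec4e, Clec5a and Clec12a (14.1%), and TGANTCA, an AP-1 site, in Clec12a (6.75%). No match overlapped one of another motif. These are matches of letters, and no binding was measured.

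Stretches of 150 bases that lie outside the annotated exons are shown for a receptor with a lower level in every knockout, Clec5a, for Clec4e, whose groups overlapped, and for Mgl2. Capitals mark the PU.1 core or its complement. They lie at chr6:40585822-40585971 (minus strand), chr6:123289872-123290021 (minus strand) and chr11:70130179-70130328 (plus strand).
Clec5a: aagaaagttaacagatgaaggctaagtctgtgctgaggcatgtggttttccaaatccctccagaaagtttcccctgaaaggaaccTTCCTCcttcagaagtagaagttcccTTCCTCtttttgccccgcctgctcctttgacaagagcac
Clec4e: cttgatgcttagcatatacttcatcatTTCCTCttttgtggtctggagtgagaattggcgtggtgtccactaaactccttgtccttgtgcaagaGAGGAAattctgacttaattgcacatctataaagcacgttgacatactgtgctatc
Mgl2: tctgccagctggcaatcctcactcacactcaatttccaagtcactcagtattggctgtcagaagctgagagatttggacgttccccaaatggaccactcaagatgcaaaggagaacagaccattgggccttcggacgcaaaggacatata

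Clec5a and Clec4e each hold 2 matches in the stretch shown. The single match of Mgl2 lies farther from the start, outside its stretch.

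Other genes listed as C-type lectins, outside the set, were taken from a list of 61. They were not each checked for a C-type lectin-like domain. This list, like the others, was chosen with earlier results of these data known. Of the 61 genes 60 had a row, 35 were tested, 1 fell, 0 rose and 34 did not pass. At an unadjusted p under 0.05, 13 were lower and 0 higher, and DESeq2 called 6 lower and limma-voom 1. The median log2 fold change of the 35 was -0.54, with 28 lower and 7 higher. Over all tested genes the median was 0.01, 47.65% were lower and 0.545% were called lower. An unadjusted p under 0.05, in either direction, was found for 1593 of the 14679 tested genes, and DESeq2 called 386 genes in all. Every knockout lay below every control for 11 of the 35, and for 6.81% of all tested genes. Among the 11 were Clec4a1, Clec4a3 and Clec4b2, which passed the filter only through their control reads. The gene that fell was Olr1, the receptor for oxidised low-density lipoprotein next to Clec7a, with 20.7, 36.5 and 28.1 CPM among controls and 10.4, 11.5, 12.4 and 10.6 CPM among knockouts. All knockouts lay close together below the controls. The fitted value for Olr1 was -1.34 on the log2 scale (SE 0.18, adjusted p = 0.013), a call that was lost without control replicate 3 or knockout replicate 1, 2 or 4. The list held Lgals3, a galectin and no C-type lectin, by mistake. Without Lgals3 34 were tested, 1 fell and the median was -0.54.

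Genes that carry the signals of these receptors were taken from a list of 23. Of these adaptors, kinases and phosphatases, all tested, 18 were lower and 5 higher, and 0 passed edgeR's test over all genes (3 lower and 0 higher at an unadjusted p under 0.05, 2 lower by DESeq2, 0 by limma-voom), with a median log2 fold change of -0.16. The partner chain Fcer1g had 35.8 ± 9.0 CPM among controls and 28.6 ± 9.8 CPM among knockouts, and Tyrobp 44.8 ± 14.8 and 32.4 ± 16.7 CPM. The kinase Syk had 147 ± 44 and 141 ± 29 CPM. These 3, singled out after their values were seen, overlapped between the groups.

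The 4 signalling genes with the smallest p were Pik3ap1, Card9, Vav3 and Inpp5d. Pik3ap1, an adaptor of phosphoinositide 3-kinase, had 29.1, 40.3 and 32.8 CPM among controls and 21.1, 19.7, 22.8 and 21.4 CPM among knockouts (log2 fold change -0.68, SE 0.12, adjusted p = 0.055). Its groups did not overlap, and it passed the test without control replicate 1. Card9, the adaptor downstream of Syk, had 38.9 ± 12.5 and 20.6 ± 4.8 CPM (log2 fold change -0.91, SE 0.23, adjusted p = 0.156). Vav3 had 32.1 ± 10.4 and 20.5 ± 4.7 CPM (adjusted p = 0.331), and Inpp5d, an inositol phosphatase, 133 ± 13 and 115 ± 13 CPM (adjusted p = 0.526). DESeq2 called Pik3ap1 and Card9.

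Cytokines, chemokines and other genes that the receptors can induce were at low levels. Of 18 in the list 10 were tested, and 0 passed edgeR's test over all genes (4 lower and 0 higher at an unadjusted p under 0.05, 2 lower by DESeq2, 0 by limma-voom), with 9 of 10 lower and a median log2 fold change of -0.73. Il10 and Il12b had no read in any library. Il12a, a subunit of interleukin 12, had 4.52, 10.1 and 5.06 CPM among controls and 0.819, 2.35, 0.947 and 1.66 CPM among knockouts (log2 fold change -2.17, SE 0.40, adjusted p = 0.058).

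The other three genes with the smallest p were the chemokine Ccl4 with 2.66 ± 0.86 and 0.862 ± 0.391 CPM (adjusted p = 0.110), Il1a with 1.72 ± 0.55 and 0.774 ± 0.215 CPM (adjusted p = 0.241), and Il6 with 1.71 ± 0.42 and 0.871 ± 0.329 CPM (adjusted p = 0.397). Ccl4 passed the test without knockout replicate 3. DESeq2 called Il12a and Ccl4.

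The genes most like Mgl2 over the 7 libraries were found by the root mean square difference between log2 CPM profiles, each centred on its own mean, among 12760 genes. They were F13a1, a coagulation factor subunit (0.35), Ttc21a (0.37), Fcnb, a ficolin (0.38), Stfa3, a cysteine protease inhibitor (0.41), and Chil3, a chitinase-like protein (0.56). F13a1 and Chil3 are also in the list of monocyte markers and thus part of its sum. The nearest receptor of the set, Clec4a2, was farther away at 0.90. Ttc21a, for example, had 10.2 ± 2.7 CPM among controls and 1.60 ± 0.67 CPM among knockouts.

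For Clec12a the nearest genes were Mcemp1, a membrane protein of mast cells and other myeloid cells, Ms4a6c, a monocyte marker, Stfa1, the leukocyte antigen Cd53, and Hsd11b1, with differences from 0.14 to 0.16. Clec5a was the nearest receptor at 0.31. Mgl2 was the farthest of the tested receptors from Clec12a, at 1.27. Likeness here includes the difference between the groups and is a description over 7 libraries. Stfa1, Stfa3 and Chil3 have near-identical relatives, among which the counting could have split reads.

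**Figure D5:**
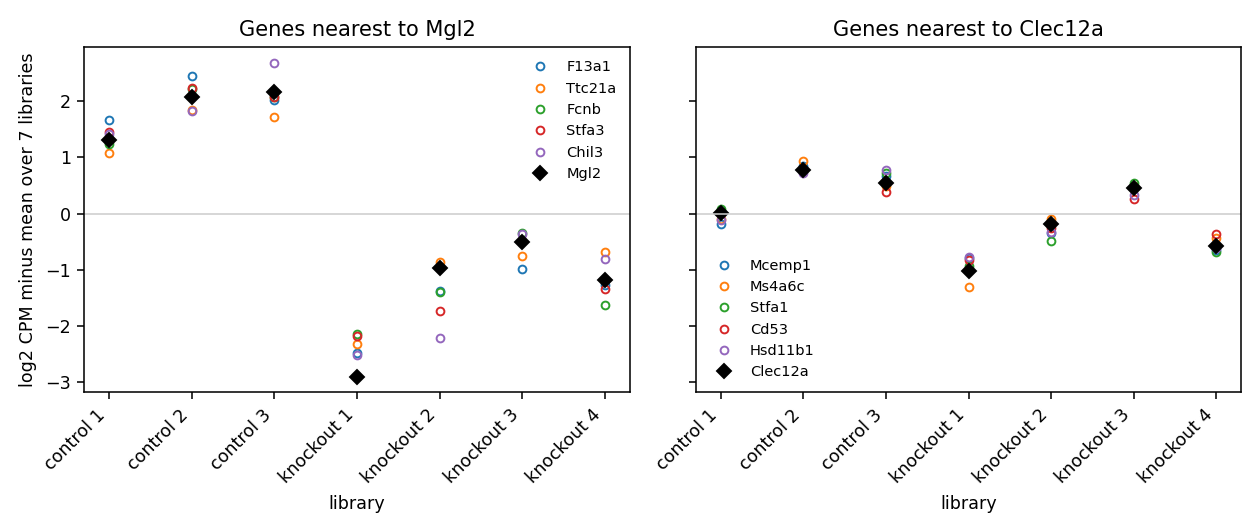
Log2 CPM minus the mean over 7 libraries for Mgl2 (left) and Clec12a (right, black diamonds) and the 5 genes nearest to each (open circles). The Mgl2 group runs from -2.90 for Mgl2 in knockout replicate 1 to 2.68 for Chil3 in control replicate 3, and the Clec12a group stays between -1.30 and 0.93.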

How the data were processed

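The authors' deposited read counts, 1 row for each gene symbol, were made with HISAT2 on mm10 and featureCounts, per the submitters' processing notes; versions, annotation, strand setting and read length: not given in the sources used here. The authors' deposited DESeq2 table has a signal (counts divided by size factors), the log2 fold change and its error, a Wald score, and the p-value before and after adjustment. Symbols and exon lengths came from GENCODE M21 (GRCm38, which mm10 names), matching 26750 of 35976 symbols; upstream windows came from RefSeq.

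Counts were filtered with filterByExpr (14679 genes), TMM-scaled and given to edgeR's quasi-likelihood test (edgeR 4.0.16, R 4.3.3), group as the only term, Benjamini-Hochberg adjusted over all tested genes and called under 0.05. The test was checked on simulated data. The alternatives used DESeq2 1.42.0, limma-voom 3.58.1, other scalings and filters, a replicate block, or 1 library fewer. The log2 CPM used a prior count of 2. Coding sequences were aligned with Biopython 1.88.

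Named genes are the members; of each further list the called genes, or else the 4 with the smallest p; and the 5 genes nearest to Mgl2 and to the member most abundant per kilobase. Neighbours of the members were chosen by position, and further genes after their values were seen. The members and lists were chosen with earlier results of these data known. Replicates of a group differed by more than counting noise (chi-square per degree of freedom 8.50 to 42.0).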

Additional observations from a re-analysis of the deposited data

Results flagged for a closer look

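Of 19 genes examined in the 4 knockouts, 2 had a library that stood apart from the other three; chance alone gives about 1 in 20 groups. Clec4e had 1.17 CPM in knockout replicate 2, with a gap of 0.915 of the group's range to the next library. Il6 had 0.382 CPM in knockout replicate 1, with a gap of 0.838. Both rest on few reads, in knockout replicates 1 to 4 32, 26, 36 and 36 for Clec4e and 7, 23, 23 and 20 for Il6.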

How the results depend on the processing

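The 8 tested receptors kept the sign of their log2 fold change under all 14 alternatives, and their median moved between -1.23 and -0.78. Calls moved more. With no filter on low counts 228 genes were called, among them 3 receptors, 7 other lectins, 2 signalling and 2 response genes. DESeq2 called 386, 3, 6, 2 and 2. The number of genes tested differed between these settings and the shares called were not computed. Nothing is therefore read from the counts of receptors called. Leaving out 1 library gave between 20 and 120 genes, 0 and 3 receptors, 0 and 2 other lectins, 0 and 1 signalling genes, and 0 and 1 response genes. The causes were not tested. Depth limits Clec10a and Cd209a, which did not pass the filter on low counts. The labels do not say that a replicate number marks a shared litter, and deviations from the group means in same-numbered libraries correlated at 0.17, -0.022 and -0.0052 over genes; knockout replicates 2 and 3 correlated better with another number. With a replicate block 121 genes were called, with 1 receptor, 3 other lectins and 1 response gene.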
